A study of Mus musculus with 2 samples.

Results

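Inhibitory checkpoint genes were followed in the lymphocytes and dendritic cells (DCs) of MC38 tumors with and without irradiation. The 8 genes were taken by symbol from the 32285 genes of the matrices: Pdcd1 (PD-1), Ctla4, Lag3, Havcr2 (TIM-3), Tigit, Cd160, Entpd1 (CD39) and Tox. All 8 were found in both matrices. The rule used no measured value, and none of the 8 was used to gate a cell type.

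CD45+ cells were sorted from subcutaneous tumors of MC38, a murine colon cancer cell line, in WT mice and were profiled by 3' droplet single-cell RNA sequencing. The Control library came from tumors without irradiation, and the IR library from tumors collected 4 days after a single local dose of 20 Gy ionizing radiation (IR). Each library pooled several tumors, so each group had 1 library, mice could not be told apart, and a difference between the libraries had no replicate check and no test. The methods of the study name mice of both sexes in young adulthood. Both sample records also carry a narrower cell type, CD45+CD11b+Ly6Chi, although the sort was on CD45 alone by the protocol, and barcodes with T cell, NK and DC genes were present in both libraries.

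Checkpoint receptors restrain T and NK cells after activation. PD-1, encoded by Pdcd1, binds PD-L1 and PD-L2 and recruits phosphatases that dampen antigen receptor and CD28 signals. CTLA-4 competes with CD28 for CD80 and CD86 and is carried constitutively by regulatory T cells. LAG-3 binds MHC class II, TIM-3 binds galectin-9 among other ligands, TIGIT binds the poliovirus receptor PVR and CD160 binds HVEM. CD39 is an ectoenzyme that degrades extracellular ATP, and TOX is a nuclear factor needed for the exhausted CD8 T cell program, so these last members are companions of the receptors rather than inhibitory receptors themselves.

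A UMI (unique molecular identifier) stands for 1 captured RNA molecule, and a barcode for 1 droplet, taken as 1 cell. The Control matrix summed to 48593879 UMIs and the IR matrix to 42406461, and 4975 and 3507 barcodes had at least 1000 UMIs, of which 7 occurred in both libraries. Cells were gated by raw UMIs of lineage genes. The CD8 gate held 220 Control and 166 IR cells, the CD4 gate without Foxp3 46 and 40, the regulatory T cell (Treg) gate with Foxp3 47 and 29, the NK gate 241 and 308, and the DC gate 211 and 246. Median UMIs per cell were higher in IR in all 5 gates, for example 8948 against 6451 in CD8 cells and 8999 against 4186 in Tregs. Levels are therefore given as CPM, the UMIs of a gene per 1000000 UMIs of all cells in the gate, with exact 95% Poisson intervals in parentheses.

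The T cell gates of the IR library carried more RNA of myeloid cells. The summed level of 10 macrophage genes was 1977 CPM in Control and 2476 CPM in IR in CD8 cells, 1872 and 2654 CPM in CD4 cells, and 1764 and 2863 CPM in Tregs. The summed level of 5 neutrophil genes was 3.04 and 538 CPM in CD8 cells, 5.39 and 898 CPM in CD4 cells, and 0 and 31 CPM in Tregs. The 8 genes of the T cell check, which include Trac, Trbc2 and Cd2, summed to 3593 and 3114 CPM in CD8 cells, 5044 and 3028 CPM in CD4 cells and 4352 and 2477 CPM in Tregs. In NK cells the macrophage genes stood at 1339 and 1411 CPM and 8 NK check genes at 6934 and 8930 CPM, and in DCs 8 DC check genes stood at 1988 and 1795 CPM. Log2 ratios of members in T cells are therefore also given without the barcodes that held 2 or more UMIs of 8 myeloid genes, or per UMI of the T cell check genes. The shares of cells were not recounted in these ways. The myeloid limit was a raw count that was not scaled to depth, and the IR barcodes were deeper. It kept 183 of 220 Control and 112 of 166 IR CD8 cells, and 41 of 47 and 14 of 29 Tregs. The part of depth in the ratios it gave was not tested. Both alternatives were chosen after the data were seen. Counting per T cell check UMI shifts all genes of a gate by the same factor. It takes the T cell check genes as unchanged by irradiation, which was not tested.

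The members lie on 7 chromosomes of the GRCm38 build. By the GENCODE M21 annotation Pdcd1 spans chr1:94038305-94052553 on the minus strand, Ctla4 chr1:60887000-60915832 on the plus strand, Lag3 chr6:124904361-124911705 on the minus strand, Havcr2 chr11:46454935-46481255 on the plus strand, Tigit chr16:43648867-43664146 on the minus strand, Cd160 chr3:96798763-96829351 on the minus strand, Tox chr4:6686353-6991557 on the minus strand and Entpd1 chr19:40612366-40741602 on the plus strand. All 8 are protein coding. In that annotation Ctla4 overlaps the pseudogene Rpl18-ps1 on its strand, and Entpd1 overlaps 3 other annotated genes. How reads of those stretches were counted was not examined.

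RefSeq promoters (GRCm38.p6, 250 bases before to 50 after the start site) were available for 6 members, with a pair each for Cd160 and Entpd1. They were searched on both strands for short motifs of factors that act downstream of antigen receptor and cytokine signals: AP-1 (TGANTCA), NFAT (GGAAAA), ISRE (a pair of GAAA with 2 bases between) and RUNX (TGTGGT). The NFAT and ISRE letters can overlap. Havcr2 and Ctla4 are shown because Havcr2 was the member higher in IR NK cells and Ctla4 the one that marked Tregs most, and Cd160 because it was lower in IR NK cells; of its 2 RUNX matches the one nearest to a start site is printed. Each window of 30 bases is written 5' to 3' on the strand of the gene, with the motif or its reverse complement in capitals.
Havcr2 AP-1, chr11:46454719-46454748, plus strand: cttcctttttgtTGATTCAtgtaataaacc
Havcr2 RUNX, chr11:46454873-46454902, plus strand: ggcctctgtgggTGTGGTtagcactcgtga
Ctla4 NFAT, chr1:60908868-60908897, plus strand: aagttgagtacaTTTTCCatccatggattt
Cd160 RUNX, chr3:96829410-96829439, minus strand: tgatctctatcaACCACAcccacacaaacc
The Havcr2 matches begin at positions -200 and -46 from the start site, the Ctla4 match at -145 and the Cd160 match at -76. Of 32544 promoters of the same length, 7.79% held the AP-1 letters, 23.3% the NFAT letters, 16.7% the RUNX letters and 3.45% the ISRE letters. Among the 6 members with a promoter, Havcr2 alone held the AP-1 letters and none held the ISRE letters. The Pdcd1 promoter held none of the 4 motifs. A match is a description of the sequence only.

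The members differed in which gate carried them, and for most of them the leading gate was the same in both libraries. Pdcd1 was highest in CD8 cells, at 218 CPM (196-242) in Control and 196 CPM (178-217) in IR, with CD4 cells next at 146 (96-212) and 152 CPM (118-193). The intervals of these 2 gates overlapped in both libraries, and those of CD4 cells stood clear of the gates below. Ctla4 had the steepest order. It stepped down from Tregs at 1835 CPM (1676-2005) in Control and 1031 CPM (928-1142) in IR to CD4 cells at 577 and 318 CPM, CD8 cells at 190.0 and 192 CPM, NK cells at 125 and 85.4 CPM and DCs at 1.58 and 1.48 CPM, and no neighbors in that order overlapped in either library. The CD4 gate required 0 Foxp3 UMIs. It still held 7 Treg genes at a summed 2767 and 1907 CPM, against 5314 and 4015 CPM in the Treg gate. In the CD8 gate they summed to 993 and 1396 CPM. Tnfrsf18, Tnfrsf4 and Capg were the highest of the 7 in the CD4 gate of both libraries. Ctla4 in CD4 cells could include Tregs in which Foxp3 was not captured, but this was not tested.

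Lag3 did not keep its order. In Control it was similar in Tregs (329.6 CPM, 264-406), CD4 cells (307 CPM, 233-398) and CD8 cells (259 CPM, 235-284), with overlapping intervals. In IR the CD8 cells led at 266 CPM (244-289), clear of CD4 cells at 143 CPM (109.8-183) and Tregs at 124 CPM (90.1-166). Cd160 led in CD8 cells in both libraries, at 77.7 CPM (64.8-92.4) and 55.4 CPM (45.6-66.6), followed by NK cells at 49.9 and 27.3 CPM. Tox was detected in all T and NK gates, from 119 CPM in Control CD4 cells to 13 CPM in IR NK cells, and had 0 UMIs in Control DCs and 3 in IR DCs. A count of 0 allows up to 3 UMIs, and these intervals and limits cover counting error only.

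Havcr2 and Entpd1 were the members least restricted to lymphocytes. Havcr2 reached 65.6 and 84.3 CPM in CD8 cells, but also 52.7 and 63.8 CPM in macrophages and 58.7 and 89.7 CPM in monocytes. Entpd1 stood at 56.2 CPM in Control Tregs and 90.2 CPM in IR Tregs, beside 74.6 and 91.6 CPM in macrophages. Tigit was near the limit of detection everywhere: 3 and 3 UMIs in CD8 cells, 0 and 1 in CD4 cells, 4 and 1 in Tregs, 4 and 4 in NK cells and 0 and 0 in DCs. No ratio was therefore formed for it.

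**Figure D1:**
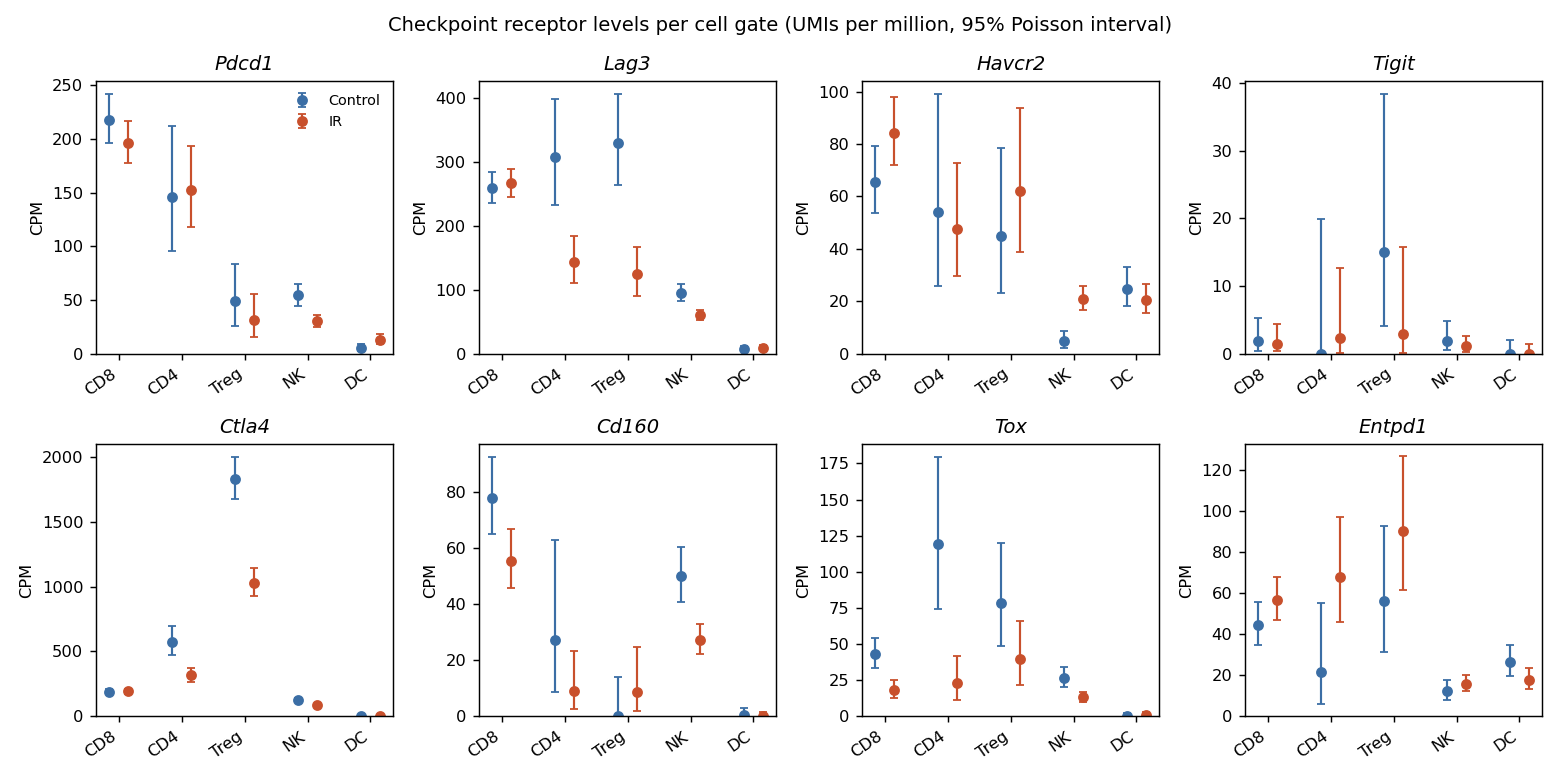
Level of each of the 8 genes (CPM, linear axis starting at 0, scale set per gene) in the 5 gates, with Control in blue and IR in orange; points are the summed level of 1 library and bars are exact 95% Poisson intervals. Ctla4 steps down from 1835 CPM in Control Tregs, Lag3 in CD4 cells and Tregs sits lower in IR than in Control, and Tigit stays at or below 15 CPM.

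In CD8 T cells, Pdcd1, Lag3 and Ctla4 were at similar summed levels in both libraries while Tox was lower in IR. Tox had 71 UMIs in 43 of 220 Control cells (43.1 CPM, 33.7-54.4) and 37 UMIs in 23 of 166 IR cells (18.1 CPM, 12.8-25). The intervals did not overlap, and the log2 ratio of IR over Control was -1.25 (counting interval -1.86 to -0.66), or 2.38-fold lower. Without the barcodes with myeloid UMIs it was -1.16 (-1.95 to -0.42), and per T cell check UMI -1.04 (-1.66 to -0.45). A gene was called where the levels differed at least 1.5-fold, the 95% counting interval of the ratio excluded 1 and both libraries together held at least 20 UMIs.

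By that rule 1 of 7 members with enough UMIs was called in CD8 cells, Tox, against 4.27% of 8913 genes called lower and 8.72% called higher. Pdcd1 had 359 and 401 UMIs, a log2 ratio of -0.15 (-0.36 to 0.06). Lag3 had 426 and 543 UMIs, a log2 ratio of 0.04 (-0.14 to 0.23). Ctla4 had 313 and 391 UMIs, a log2 ratio of 0.01 (-0.21 to 0.23). These 3 receptors thus differed by at most 1.11-fold in the summed counts.

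Those 3 ratios moved with the counting method. Without the barcodes holding 2 or more myeloid UMIs, which left 183 Control and 112 IR CD8 cells, the log2 ratio was 0.51 (0.27 to 0.74) for Pdcd1, 0.55 (0.35 to 0.76) for Lag3 and 0.39 (0.14 to 0.64) for Ctla4, each above 0 and each under the 1.5-fold limit. The mean of per-cell CPM, which weights cells equally, gave 0.23 for Pdcd1 and 0.59 for Lag3, and Lag3 then passed the limit. Per T cell check UMI the log2 ratio was 0.06 (-0.15 to 0.27) for Pdcd1, 0.25 (0.06 to 0.43) for Lag3 and 0.22 (0.00 to 0.44) for Ctla4. The direction of Pdcd1 in CD8 cells was hence set by the counting method, and Lag3 and Ctla4 ranged from no difference to higher in IR.

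Havcr2 had 108 UMIs in Control CD8 cells and 172 in IR, a log2 ratio of 0.36 (0.01 to 0.72), which was positive under all 15 alternatives tried (0.26 to 0.57), with 0.50 (0.03 to 0.97) without the myeloid barcodes and 0.57 (0.21 to 0.93) per T cell check UMI, and did not reach 1.5-fold in any of these 3. Cd160 was at 128 and 113 UMIs with a log2 ratio of -0.49 (-0.87 to -0.11), and it stood at -0.08 (-0.51 to 0.35) without the myeloid barcodes and -0.28 (-0.66 to 0.09) per T cell check UMI. Entpd1 had 73 and 116 UMIs, a log2 ratio of 0.36 (-0.08 to 0.80), and -0.17 (-0.81 to 0.45) without the myeloid barcodes and 0.57 (0.13 to 1.01) per T cell check UMI.

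**Figure D2:**
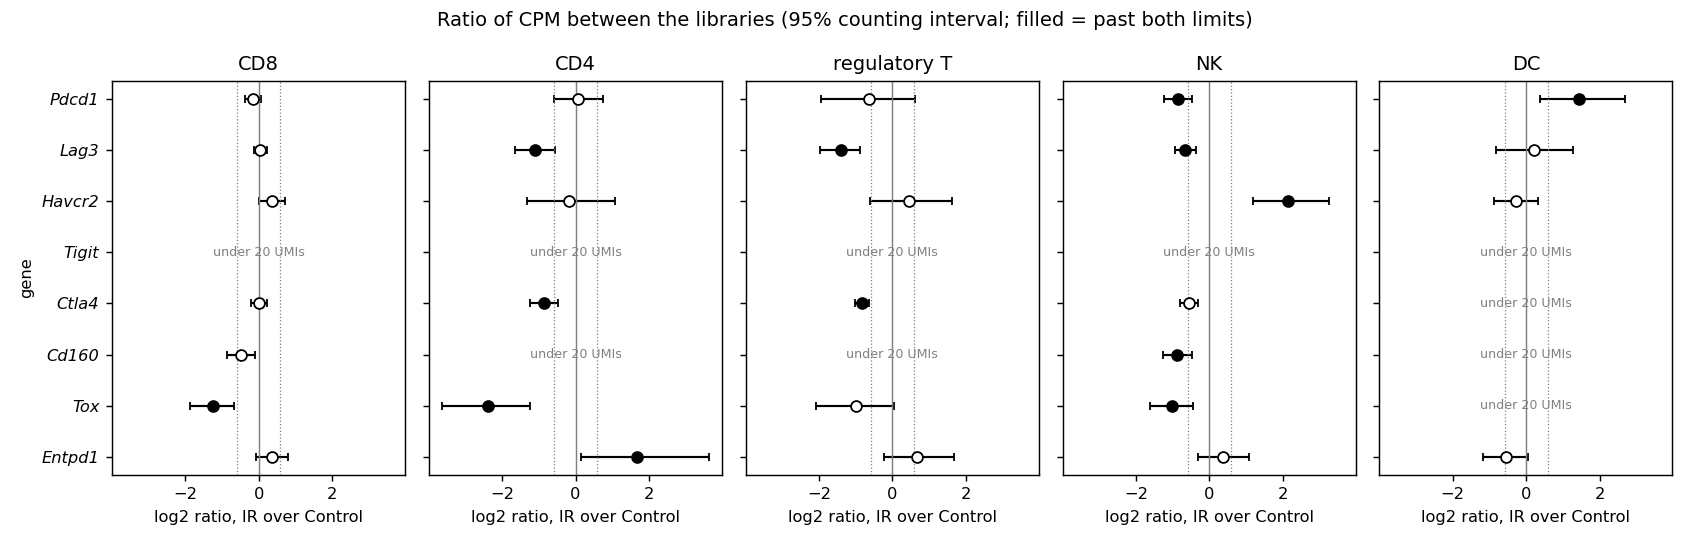
Log2 ratio of CPM, IR over Control, of each gene in each gate, with 95% counting intervals; filled points pass the 1.5-fold limit (dotted lines) with an interval that excludes 0, and genes with under 20 UMIs have no point. Tox lies left of 0 in all 4 T and NK gates, with an interval reaching 0.05 in Tregs, Havcr2 in NK cells lies at 2.14, and Pdcd1 in DCs at 1.45.

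Shares of cells with a UMI were compared at 1 depth. With each barcode thinned to 1000 UMIs, 20% of the Control CD8 cells (exact interval 14.9-25.9%) and 21.1% of the IR CD8 cells (15.1-28.1%) held Pdcd1, and unthinned in 56.8% and 67.5%. Lag3 was found in 25% (19.4-31.3%) and 33.1% (26-40.8%) after thinning. Havcr2 was found in 5.45% (2.85-9.33%) and 13.9% (8.99-20.1%). Macrophages, which should lack Pdcd1 and Lag3, gave thinned shares of 0.0876% and 0.435% for Pdcd1 and 0.175% and 0% for Lag3, at median depths of 8458 and 9027 UMIs, so the CD8 shares stood far above that background.

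Several checkpoint genes were often detected in the same CD8 cell, to a similar extent in both libraries. At 2000 UMIs per barcode, 39 of 209 Control cells (18.7%, 13.6-24.6%) and 29 of 159 IR cells (18.2%, 12.6-25.1%) held UMIs of at least 3 of the 8 genes. The ratio of these shares was 0.977 (0.633-1.51), so differences inside that interval were not detectable at this depth. None of the 8 was detected in 20.1% of Control and 26.4% of IR cells. At least 3 of the genes were held by 21.6% (9.83-38.2%) of 37 Control and 5.26% (0.644-17.7%) of 38 IR CD4 cells, by 20.5% (9.8-35.3%) of 44 and 11.5% (2.45-30.2%) of 26 Tregs, and by 2.17% and 1.33% of NK cells.

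Among CD8 cells with a Pdcd1 UMI, the shares with Lag3 or Ctla4 were higher than among those without, with intervals that overlapped. Lag3 was detected in 51.7% (38.4-64.8%) of 60 IR cells with Pdcd1 and in 30.3% (21.5-40.4%) of 99 without, and in Control in 50.8% (37.9-63.6%) of 63 and 38.4% (30.4-46.8%) of 146. Ctla4 was detected in 43.3% (30.6-56.8%) and 22.2% (14.5-31.7%) in IR, and in 34.9% and 30.8% in Control. The cells of a library are not replicates, and the contrast between the libraries was not tested. In the same thinned cells Gzmb, a cytotoxic granule protease, stood at 3392 CPM (3070-3738) with Pdcd1 and 1662 CPM (1487-1851) without in IR, and at 968 (804-1156) and 709 CPM (616-812) in Control. Ccr7, a homing receptor, stood at 225 CPM (148-327) with Pdcd1 and 50.5 CPM (24.2-92.9) without in IR, and at 71.4 (32.7-136) and 30.8 CPM (14.1-58.5) in Control. Ifng went the other way in Control, at 452 CPM (343-586) with and 619.9 CPM (533-717) without, and in IR stood at 192 and 212 CPM. Tcf7, the factor of progenitor-like cells, had at most 9 UMIs in any of these groups, too few to order them.

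**Figure D3:**
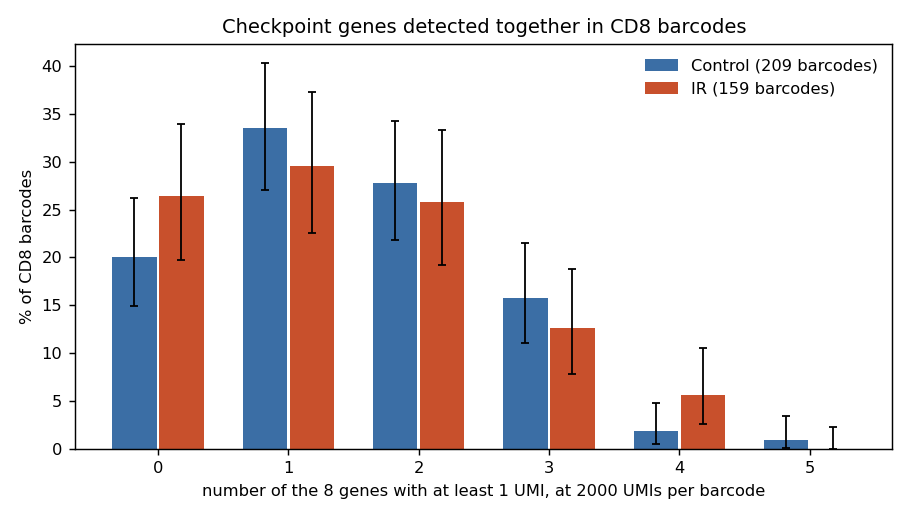
Share of CD8 barcodes (%) by how many of the 8 genes had at least 1 UMI after thinning to 2000 UMIs, Control in blue and IR in orange, with exact 95% binomial intervals. The intervals of the libraries overlap at every number, and 1 gene is the most frequent number in both.

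In CD4 T cells and Tregs, Lag3 was lower in the IR library in both gates, Tox was lower in CD4 cells, and Ctla4 was lower in the summed counts of both gates. In CD4 cells Lag3 had 57 UMIs in 24 of 46 Control cells (307 CPM) and 63 in 12 of 40 IR cells (143 CPM). The log2 ratio was -1.11 (-1.65 to -0.56). In Tregs Lag3 had 88 UMIs in 19 of 47 Control cells (329.6 CPM) and 44 in 13 of 29 IR cells (124 CPM). The log2 ratio was -1.41 (-1.97 to -0.87). A single Treg held up to 17 UMIs in Control and 19 in IR, and a single CD4 cell up to 6 and 14. The counting intervals do not cover this spread between cells. Without the myeloid barcodes Lag3 stayed lower, at -0.83 (-1.51 to -0.17) in CD4 cells and -1.11 in Tregs, where the upper bound was -0.34. Per T cell check UMI it was -0.37 (-0.91 to 0.17) and -0.60 (-1.15 to -0.06), so the CD4 difference was then within counting error.

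Tox in CD4 cells had 22 UMIs in 13 of 46 Control cells and 10 UMIs in 8 of 40 IR cells, 119 CPM (74.4-179.7) against 22.7 CPM (10.9-41.7). The log2 ratio was -2.39 (-3.63 to -1.25), and it remained below 0 without the myeloid barcodes at -1.83 (-3.90 to -0.13) and per T cell check UMI at -1.65 (-2.89 to -0.51). In Tregs Tox had 21 and 14 UMIs, 78.6 against 39.4 CPM, with an interval of the log2 ratio from -2.08 to 0.05, and was not called. Its log2 ratio was -2.08 (-5.23 to -0.02) without the myeloid barcodes and -0.18 (-1.27 to 0.86) per T cell check UMI.

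Ctla4 in Tregs had 490 UMIs in 41 of 47 Control cells and 366 UMIs in all 29 IR cells, 1835 against 1031 CPM and a log2 ratio of -0.83 (-1.03 to -0.63). Under both alternatives the log2 ratio was smaller in size, with an interval that included no difference. It was -0.06 (-0.31 to 0.19) in the 41 Control and 14 IR Tregs without myeloid UMIs, and -0.02 (-0.22 to 0.18) per T cell check UMI. In CD4 cells Ctla4 had 107 and 140 UMIs (577 and 318 CPM), a log2 ratio of -0.86 (-1.24 to -0.49), which was -0.70 (-1.17 to -0.23) without the myeloid barcodes and -0.13 (-0.50 to 0.25) per T cell check UMI.

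**Figure D4:**
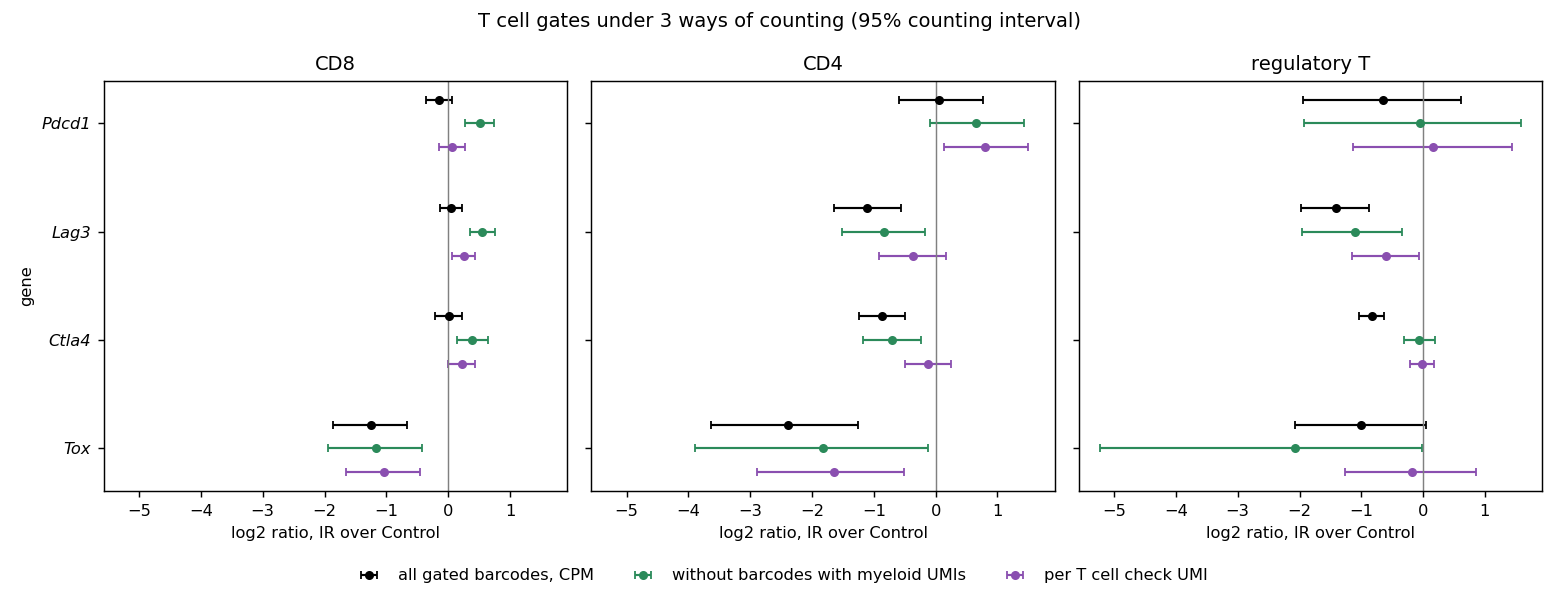
Log2 ratio, IR over Control, of Pdcd1, Lag3, Ctla4 and Tox in the 3 T cell gates, counted over all gated barcodes (black), without barcodes with 2 or more myeloid UMIs (green) and per UMI of the T cell check genes (purple), with 95% counting intervals. Tox in CD8 and CD4 cells stays below 0 in all 3, while Ctla4 in Tregs moves from -0.83 to -0.06 and -0.02. The green Tox point of CD4 cells rests on under 20 UMIs.

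Entpd1 was the member called higher in IR CD4 cells, with 4 UMIs in Control (21.6 CPM) and 30 in IR (68 CPM), a log2 ratio of 1.66 (0.15 to 3.62). Without the myeloid barcodes it was 0.61 (-1.75 to 3.30), per T cell check UMI it was 2.39 (0.89 to 4.36), and the level in IR macrophages was 91.6 CPM. Pdcd1 in CD4 cells was at 27 and 67 UMIs with a log2 ratio of 0.06 (-0.60 to 0.76), at 0.65 (-0.09 to 1.43) without the myeloid barcodes and at 0.80 per T cell check UMI, with an interval above 0. Altogether 3 of 6 members with enough UMIs were called lower and 1 higher in CD4 cells, against 7.69% and 9.51% of 4280 genes. In Tregs 2 of 6 were called lower and 0 higher, against 6.08% and 9.09% of 4390 genes. In simulated CD4 counts of this depth, drawn with Poisson error only, 53 of 100 genes with a 2-fold change were called.

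In NK cells, Havcr2 was higher in the IR library and Pdcd1, Lag3, Cd160 and Tox were lower. Havcr2 had 10 UMIs in 8 of 241 Control cells (4.71 CPM, 2.26-8.65) and 80 UMIs in 47 of 308 IR cells (20.8 CPM, 16.5-25.9), a 4.41-fold difference and a log2 ratio of 2.14 (1.19 to 3.26). Macrophages and monocytes also carry Havcr2. The C1qa, C1qb and C1qc levels in the NK gate were 23.5, 21.6 and 16.9 CPM in Control and lower in IR, at 14, 15.3 and 3.89 CPM, whereas Csf1r was at 12.7 and 29.9 CPM and the neutrophil genes at 2.82 and 74.8 CPM. Without the myeloid barcodes, which left 227 and 274 cells, the log2 ratio of Havcr2 was 2.18 (0.82 to 3.89). Unthinned, 3.32% of Control and 15.3% of IR NK cells held it. After thinning to 1000 UMIs, 0 of 241 Control and 5 of 308 IR cells did, and in a separate draw of the Gzmc-family NK cells 3 of 173 and 3 of 205, so at this depth a difference in the share of cells was not detectable.

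Pdcd1 in NK cells had 115 UMIs in 30 Control cells and 116 in 21 IR cells, 54.1 CPM (44.7-64.9) and 30.1 CPM (24.9-36.1), a log2 ratio of -0.85 (-1.23 to -0.46). A single cell held up to 10 Control and 12 IR UMIs, and the mean of per-cell CPM gave a log2 ratio of -0.18. Cd160, an activating or inhibitory receptor depending on its form, had 106 and 105 UMIs, 49.9 CPM (40.8-60.3) and 27.3 CPM (22.3-33), a log2 ratio of -0.87 (-1.27 to -0.47). Lag3 had 200 and 231 UMIs, a log2 ratio of -0.65 (-0.93 to -0.37). Tox had 56 and 50 UMIs, a log2 ratio of -1.02 (-1.60 to -0.44). The intervals of the levels did not overlap for any of the 5 called genes.

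Ctla4 in NK cells, with 266 and 329 UMIs, had a log2 ratio of -0.55 (-0.79 to -0.31), just short of 1.5-fold. In all, 4 of 7 members were called lower and 1 higher in NK cells, against 5.48% and 5.02% of 9388 genes. Pdcd1 and Lag3 lay close to the limit: without the 5% of barcodes with the most UMIs their log2 ratios were -0.58 and -0.57 and neither was called.

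Pdcd1, Lag3 and Ctla4 were higher in 1 NK subset than in the other. Gzmc-family NK cells (173 Control and 205 IR cells), defined by the granzymes Gzmc to Gzmg and Itga1, held 114 of the 115 Control Pdcd1 UMIs and all 116 IR UMIs. Ly49 NK cells (57 and 93 cells), which carried Klra genes or S1pr5, held 0 Pdcd1 UMIs in both libraries, with upper limits of 14.8 and 7.12 CPM. Lag3 stood at 104 and 66.4 CPM in Gzmc-family cells and 36 and 21.2 CPM in Ly49 cells. Ctla4 stood at 142 and 97.1 CPM in Gzmc-family cells and 28 and 13.5 CPM in Ly49 cells. Tox did not follow this division, at 25.8 and 10.7 CPM in Gzmc-family cells and 24 and 28.9 CPM in Ly49 cells, where its log2 ratio was 0.27 (-1.18 to 1.92). Entpd1 was the reverse, at 8.22 CPM (4.6-13.6) in Gzmc-family and 44 CPM (22-78.7) in Ly49 cells of Control, and at 13.7 CPM (9.99-18.3) and 28.9 CPM (16.2-47.7) in IR, where the intervals overlapped.

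DCs held few UMIs of most members, and Pdcd1 was the 1 called among them. It had 9 UMIs in 6 of 211 Control DCs (4.73 CPM, 2.16-8.99) and 35 UMIs in 19 of 246 IR DCs (13 CPM, 9.03-18), a 2.74-fold difference and a log2 ratio of 1.45 (0.37 to 2.70). By the same rule 1 of 4 members was called higher and 0 lower, against 5.47% and 4.77% of 9039 genes. Mature DCs, which express Ccr7 and Fscn1 and migrate to lymph nodes, held all 9 Control UMIs and 31 of the 35 IR UMIs. None of the 6 Control and 19 IR barcodes with Pdcd1 held a UMI of Cd3d, Cd3e, Cd3g, Trac, Trbc1 or Trbc2. Among barcodes without Pdcd1, 27 of 205 and 23 of 227 did. The DC gate itself allowed at most 1 UMI of Cd3d, Cd3e and Cd3g together, so this count could not test for T cell RNA. Summed NK and fibroblast genes were also higher in the IR DC gate. The 8 NK check genes summed to 280.3 CPM in Control and 432 CPM in IR, Gzmb stood at 6.31 and 37.4 CPM and Xcl1 at 2.63 and 14.8 CPM. The 5 fibroblast genes summed to 87.8 and 338 CPM, and in mature DCs to 147 and 381 CPM. The part of these RNAs in the Pdcd1 difference was not tested.

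The size of the Pdcd1 difference in DCs was uncertain. The mean of per-cell CPM gave a log2 ratio of 0.49, and the gene was then not called. After thinning to 1000 UMIs, 1 of 211 Control DCs and 2 of 246 IR DCs held Pdcd1, and among mature DCs, in a separate draw, 3 of 116 and 1 of 135, too few to order. The macrophage level, 0.483 and 1.24 CPM, was below that of DCs in each library, and in empty droplets Pdcd1 stood at 26.6 and 35.9 CPM.

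Among the named DC subsets, Havcr2 and Entpd1 were both highest in Xcr1 DCs, the subset that cross-presents antigen. Havcr2 stood at 75.7 CPM (52.1-106) in 34 Control and 70.8 CPM (43.8-108) in 26 IR Xcr1 DCs, at 27.6 and 24.4 CPM in Cd209a DCs and at 1.04 and 5.46 CPM in mature DCs. Entpd1 stood at 64.3 CPM (42.7-92.9) and 43.8 CPM (23.3-74.9) in Xcr1 DCs, with intervals that overlapped those of Havcr2. In Cd209a DCs Entpd1 was at 38.2 CPM (22.7-60.4) and 32.9 CPM (21.7-47.9), overlapping its Xcr1 DC intervals, and in mature DCs at 3.11 and 4.1 CPM. Over all DCs Havcr2 had 47 and 55 UMIs and a log2 ratio of -0.28 (-0.87 to 0.31). Entpd1 had 50 and 48 UMIs in DCs, a log2 ratio of -0.56 (-1.17 to 0.04), and Lag3 14 and 23 UMIs, a log2 ratio of 0.21 (-0.81 to 1.28). Ctla4, Cd160, Tox and Tigit had at most 4 UMIs in either library.

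**Figure D5:**
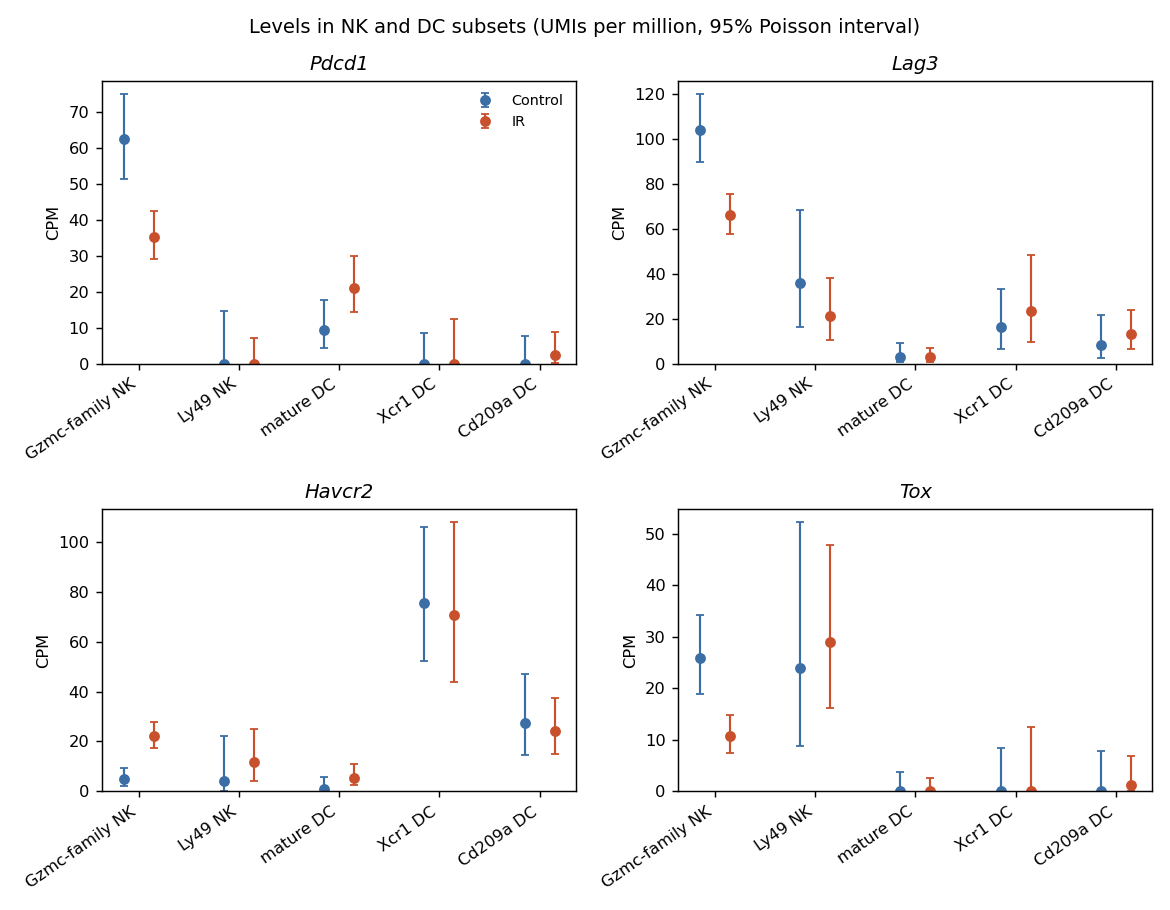
Level of Pdcd1, Lag3, Havcr2 and Tox (CPM, linear axis starting at 0) in 2 NK and 3 DC subsets, Control in blue and IR in orange, with exact 95% Poisson intervals. Pdcd1 is seen in Gzmc-family NK cells and mature DCs and has 0 UMIs in Ly49 NK cells, and Havcr2 is highest in Xcr1 DCs.

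Genes of the same pathway were read by the same rule. The shares of all genes called higher and lower, against which the counts stand, were 8.72% and 4.27% in CD8 cells, 9.51% and 7.69% in CD4 cells, 9.09% and 6.08% in Tregs, 5.02% and 5.48% in NK cells and 5.47% and 4.77% in DCs. The median log2 ratio of all tested genes was -0.01 in CD8, -0.03 in CD4, -0.01 in regulatory T, -0.04 in NK and 0.02 in DC gates. In CD8 cells, of 12 measured transcription factors linked to exhaustion 3 were called lower and 2 higher, with Nr4a2, an antigen receptor response factor, at 563 and 297 CPM. Of 12 effector genes 3 were higher and 2 lower. Gzmb was at 864 and 2321 CPM and Tnf at 30.4 and 167 CPM, whereas Ifng was at 461 and 211 CPM and Ccl4 at 1818 and 766 CPM. Of 11 progenitor and memory genes 3 were higher, with Ccr7 at 51 and 132 CPM, and 1 was lower, the chemokine Xcl1, at 755 and 115 CPM. None of 13 receptor signalling genes was called in either direction. Of 10 receptor ligands, with a median log2 ratio of 0.63, 5 were higher, among them Cd274 (PD-L1) at 47.4 and 121 CPM and Cd86 at 27.3 and 74.5 CPM. Cd86 and Ccr7 are also genes of myeloid cells and DCs, and the part of the mixed RNA described above in these values was not tested.

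In CD4 cells 6 of 8 costimulatory receptors were called lower, with a median log2 ratio of -0.96, with Cd28 at 534 and 225 CPM and Cd27 at 113 and 31.8 CPM, and 5 of 13 receptor signalling genes were lower and 0 higher. In the other direction, 7 of 11 effector genes (median 1.17) were higher and 1 lower, and 6 of 9 receptor ligands and 3 of 7 progenitor and memory genes (median 0.43) were higher and 0 lower. Ccl3 stood at 53.9 and 515 CPM, Ccr7 at 43.2 and 277 CPM and Cd86 at 21.6 and 111 CPM. In Tregs 4 of 6 costimulatory receptors and 5 of 12 signalling genes were lower and 0 higher, whereas 3 of 6 progenitor and memory genes were higher and 0 lower, 2 of 9 effector genes were higher and 3 lower, and 2 of 10 ligands were higher and 1 lower. The T cell check genes were lower and the macrophage genes higher in these gates of the IR library, and their part in these counts was not tested. In NK cells 6 of 12 effector genes (median log2 ratio 0.65) were higher and 1 lower. Gzmb stood at 1389 and 3569 CPM and Prf1 (perforin) at 737 and 1213 CPM in these cells. Cd226, the activating counterpart of TIGIT for the same ligand, was lower in NK cells at 71 and 26.2 CPM. Cd96, another receptor of that family, was lower in CD8 cells at 91.1 and 60.3 CPM and in NK cells at 89.9 and 53.7 CPM. Of 10 other checkpoint receptors in CD8 cells, Cd96 among them, 1 was called higher and 2 lower (median log2 ratio 0.04). Of 8 in NK cells, 0 were higher and 1 lower (median 0.01).

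The ligands in DCs, with a median log2 ratio of 0.24, included 3 of 12 called higher and 0 lower. Pdcd1lg2 (PD-L2) was at 101 and 160.4 CPM, Lgals9 (galectin-9) at 31 and 80.0 CPM and Nectin2 at 13.7 and 24.8 CPM, with log2 ratios of 0.67, 1.37 and 0.86. Cd274 in DCs was at 224 and 274 CPM, a log2 ratio of 0.29 that was not called. Nr4a1, Nr4a2 and Nr4a3 were all lower in IR DCs, with log2 ratios of -0.84, -0.61 and -0.76.

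The 20 points were the T cell gates, the named NK and DC subsets, macrophages and monocytes of both libraries. Over them, the genes most similar to each member by Pearson correlation of log2(CPM + 10) were Cxcr6 for Pdcd1 (0.93), Icos for Ctla4 (0.98), Ltb for Lag3 (0.96), Slco3a1 for Havcr2 (0.88), Lrrc32 for Tigit (0.83), Klra5 for Cd160 (0.93), Cers4 for Tox (0.97) and Itgb2 for Entpd1 (0.89). Tigit had at most 4 UMIs at any point, so its correlations rest on few molecules. Among the members, Lag3 and Ctla4 were the most alike (0.92), followed by Ctla4 and Tox (0.90). Havcr2 and Entpd1 were alike at 0.79 and correlated with the other 6 members at 0.19 or less. The points share libraries, so these values are descriptions.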

How the data were processed

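For each library the authors deposited 1 unfiltered matrix of UMI counts (genes by barcodes) from 10x Chromium 3' libraries aligned to mm10; the submitters' processing notes name Cell Ranger 6.0.1 and the matrix headers Cell Ranger 4. Barcodes with at least 1000 UMIs, at least 200 genes and at most 25% mitochondrial UMIs were kept. T cells held at least 2 UMIs of Cd3d, Cd3e and Cd3g, split by Cd8a and Cd8b1, Cd4 and Foxp3; NK cells at least 2 of Ncr1 and Klrb1c; DCs at least 2 of Flt3, Xcr1, Clec9a and Cd209a, or Ccr7 with Fscn1. T and NK cells had Lyz2 and C1q at or under 0.3% of UMIs, and DCs C1q at or under 0.1%. NK cells and DCs held at most 1 UMI of Cd3d, Cd3e and Cd3g together, and DCs at most 1 of Ncr1 and Klrb1c. No doublet caller was run; doublets were limited by these exclusions.

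The count matrices were summed per gate and library. With 1 library per group no count model was fitted and no p-value is given. Ratios carry exact conditional 95% intervals and shares exact Clopper-Pearson intervals after thinning. Recovery was tested on simulated CD8 counts, where 80 of 100 genes with a 2-fold change and 2.39% of unchanged genes were called. These counts were drawn from a Poisson distribution with no spread between cells or mice. The 2.39% is therefore not a rate of false calls for the real libraries. The members, gene lists and gates were chosen with earlier results of these data known. All 8 members are named; of the pathway lists, at most 6 called genes in each direction per gate, by size, were eligible, and Cd96 in CD8 and NK cells, Cd274, Pdcd1lg2 and Nectin2 were named after their values were seen. Alternatives covered UMI, lineage and macrophage RNA limits, totals, per-cell means, free RNA and edgeR 4.0.16 TMM factors. Python 3.11.15, numpy 2.4.6, scipy 1.17.1, pandas 2.3.3 and R 4.3.3 were used.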

Additional observations from a re-analysis of the deposited data

Results flagged for a closer look

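Pdcd1 moved in opposite directions in NK cells and DCs, with a log2 ratio of IR over Control of -0.85 in NK cells and 1.45 in DCs; the counting intervals of these ratios did not overlap, and with 1 library per group the difference was not tested. Empty droplets, barcodes with 10 to 100 UMIs outside the cell gates, held Lag3 at 56.9 CPM in IR and 34.9 CPM in Control, and Havcr2 at 47.5 CPM in IR and 30.3 CPM in Control. By C1q, the free RNA share was estimated at 3.26% in Control and 10.9% in IR CD8 cells, 2.57% and 14% in CD4 cells, 6.13% and 12.7% in Tregs, 1.41% and 2.09% in NK cells, and 2.58% and 2.84% in DCs.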

How the results depend on the processing

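No paired analysis was possible because each group held a single library. Of 99 alternative values for the counts of called members and the CD8 share ratio, 87 stayed within 1.5 times the main value or within its counting error and 12 did not. In CD8 cells, where 1 member was called, 2 were called with totals without mitochondrial and ribosomal protein genes, 2 with the mean of per-cell CPM, and 3 at a lower fold limit. In CD4 cells, with 4 called, 2 were called at a lineage minimum of 4 UMIs and 2 without the barcodes with myeloid UMIs. In Tregs, with 2 called, 4 were called after pooling with the CD4 gate. In NK cells, with 5 called, 3 were called without the 5% of barcodes with the most UMIs and 0 in Ly49 NK cells alone, where Tox turned from -1.02 to 0.27. In DCs, with 1 called, 2 were called at a lineage minimum of 4 UMIs, 2 with totals without mitochondrial and ribosomal protein genes, 2 after subtracting free RNA and 0 with the mean of per-cell CPM. The cause of these changes was not tested. Of 468 alternative log2 ratios of single members, 433 stayed within the counting interval of the main value and 35 did not; 35 had the sign opposite to the main value, most of them of members that were not called, among them Pdcd1, Lag3 and Ctla4 in CD8 cells. Without thinning, 59 of 80 shares moved. TMM factors shifted log2 ratios by 0.115 in CD4 cells. Counting error limited the CD4 and Treg gates most, and no interval covers variation between mice.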
